A study of Mus musculus with 30 samples.

Results

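Indoxyl sulphate (IS) is a protein-bound uremic toxin that accumulates when the kidney fails, and pNaKtide is a cell-permeant peptide designed to block the signaling that runs from the Na,K-ATPase through the kinase Src. The comparison described here is pNaKtide added to IS against IS alone in 3T3-L1 cells, a mouse preadipocyte line that turns into fat cells in adipogenic medium. It takes up 10 of the 30 libraries of the series, chosen by their labels: 5 treated with 100 µM IS and 5 treated with 100 µM IS plus 0.7 µM pNaKtide. All cells of the series, controls included, had been kept in adipogenic medium, whose additives were dexamethasone, IBMX, insulin and indomethacin, so each value below is a difference between cells under that hormone mixture. The labels give 5 days of treatment, whereas the methods of the study give a shorter course, and the labels describe the RNA as coming from adipose tissue although the samples are cultured cells. Libraries of control cells, of cells given pNaKtide alone, and of cells given 50 µg/mL oxidized LDL (oxLDL) with or without 0.7 µM pNaKtide, 5 of each, are used only as reference points. The labels do not say that the 5 libraries of a group came from separate cultures, so p-values measure the spread between these libraries, which may be technical.

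Adipocyte markers were abundant in all 10 libraries. Lpl, the lipase that releases fatty acids from lipoproteins, lay between 3042 and 3806 CPM (CPM are read counts scaled to a common library size), Fabp4, a fatty acid carrier of fat cells, between 2041 and 2849 CPM, and adiponectin (Adipoq) between 676 and 983 CPM. Preadipocyte markers were still present, with Dlk1 between 69.4 and 196 CPM. The summed level of 8 adipocyte markers ran from 10671 to 13461 CPM in IS and from 11871 to 13746 CPM in IS + pNaKtide, and these ranges overlapped. The leukocyte gene Ptprc and the endothelial cadherin Cdh5 had no count in any of the 10 libraries, and the summed levels of 12 macrophage markers (9.94 to 12.7 CPM in IS, 10.0 to 13.9 CPM in IS + pNaKtide), 10 endothelial markers (0.187 to 1.04 and 0.327 to 1.23 CPM), 10 skeletal muscle markers (13.1 to 27.0 and 15.3 to 19.4 CPM) and 10 epithelial markers (1.46 to 2.72 and 1.52 to 2.31 CPM) were low and overlapped between the groups. In these bulk samples, fewer cells of a type and less RNA per cell cannot be told apart.

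IS replicate 4 stood apart from the other 9 libraries. On the first principal component of log2 CPM, which carried 60.8% of the variance among the 10 libraries, it scored 47.7 while the other IS libraries scored between -22.3 and -5.36 and the IS + pNaKtide libraries between -4.74 and 14.6. It had the lowest total, 11318450 counts against 14032975 to 15159877 in the other IS libraries and 11514057 to 13195028 in IS + pNaKtide. It lay above all other IS libraries for 5279 and below all of them for 5329 of 12634 genes that averaged a log2 CPM of 1 or more, where another IS library did so for a median of 1512 and 1393.5 genes. Its difference from the other IS libraries followed GC content across 12621 genes (Spearman's rho 0.62, a description across genes that share libraries and are not independent). The main results are therefore given with this library and without it.

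**Figure D1:**
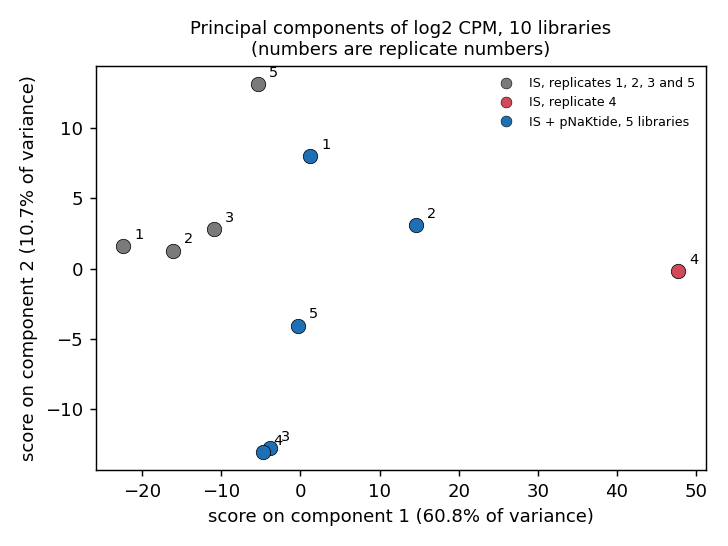
Scores of the 10 libraries on the first and second principal components of log2 CPM, with the share of variance on each axis and the replicate number beside each point. IS replicate 4 sits at 47.7 on the horizontal axis, far to the right of the other 9 libraries, which lie between -22.3 and 14.6.

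No gene passed a BH-adjusted p of 0.1 with pNaKtide added to IS, by edgeR's quasi-likelihood test over 20139 genes, and none did when IS replicate 4 was left out. At an unadjusted p under 0.05 there were 564 genes (2.80%), 293 higher (1.45%) and 271 lower (1.35%). That share is below the 0.05 that the threshold gives by itself when nothing differs, so the count alone shows no set of changed genes. Without IS replicate 4 the count became 1426 genes (7.08%), 835 higher (4.15%) and 591 lower (2.93%). That library had been left out for standing apart in these same data. DESeq2 called 14 genes (0.0695%), all higher, and 27 without IS replicate 4, 26 of them higher. By limma on log2(FPKM + 1), 3 genes (0.022%) passed, and by voom with sample quality weights 608 (3.02%). The differences were small: among those 12634 genes, the median absolute log2 fold change was 0.06 and the 95th percentile 0.25, against a median SE of 0.13, and without IS replicate 4 the same values were 0.11, 0.35 and 0.12. Without that library, in a fit of the 9 remaining libraries alone over 20127 genes, 1957 genes passed (9.72%), 967 higher (4.80%) and 990 lower (4.92%), at a BH-adjusted p under 0.1, whereas none passed in the fit of all 29 remaining libraries. With 1 more library left out of the 9, the count was 672 without IS replicate 1, 757 without IS replicate 2 and 1235 without IS + pNaKtide replicate 5.

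Among the 10 genes with the smallest p of those higher with pNaKtide, Mxi1, Egln1, Eno2, Ndrg1, Egln3 and Adm are known targets of the response to low oxygen, a theme named after the values had been seen. In that response the transcription factors HIF-1α and HIF-2α escape hydroxylation by the prolyl hydroxylases Egln1, Egln2 and Egln3, are no longer marked for degradation by the Vhl ubiquitin ligase, pair with Arnt, and bind short RCGTG elements in genes of glucose uptake, glycolysis and vessel growth. Egln1 and Egln3 are themselves targets, which forms a feedback loop. In adipose tissue this response is known from obesity, when fat outgrows its blood supply.

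The core of the element is ACGTG or GCGTG, of which GCGTG is also the core bound by the aryl hydrocarbon receptor, a receptor for which IS is a known ligand, and ACGTG lies within the CACGTG box of other factors. The 250 bases before the start of genes that the results turn on were searched on both strands in RefSeq promoters of build GRCm38.p6. Of 14874 promoters of tested genes 52.6% held either motif, 20.5% ACGTG and 41.8% GCGTG. Among the 20 glycolysis genes 14 held one, 7 with ACGTG and 9 with GCGTG. Of the 10 higher genes 8 had an entry and 3 of these held one, as did 2 of 8 of the 10 lower genes, so that neither share exceeded that of tested promoters. The stretches shown were picked from genes described next because they hold a motif, with the motif or its reverse complement in capitals and each read 5′ to 3′ on the gene's strand. They lie, in this order, at chr8:124949351-124949405 (minus strand), chr12:54204074-54204124 (minus strand), chr7:110627542-110627632 (plus strand), chrX:106186925-106186998 (plus strand), chr19:41911732-41911812 (plus strand), chr4:119108659-119108738 (plus strand) and chr7:46845731-46845799 (plus strand), all upstream of the RefSeq start, which can differ from the gene bounds given below. A match is a description of these letters, not a shown binding site.
Egln1: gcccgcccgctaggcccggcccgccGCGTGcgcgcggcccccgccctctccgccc
Egln3: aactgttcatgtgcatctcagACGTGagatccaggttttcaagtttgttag
Adm: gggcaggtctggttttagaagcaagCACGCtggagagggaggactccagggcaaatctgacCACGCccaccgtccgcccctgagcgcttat
Pgk1: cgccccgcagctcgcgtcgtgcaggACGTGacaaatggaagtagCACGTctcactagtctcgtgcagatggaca
Pgam1: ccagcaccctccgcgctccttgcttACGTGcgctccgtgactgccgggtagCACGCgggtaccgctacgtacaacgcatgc
Slc2a1: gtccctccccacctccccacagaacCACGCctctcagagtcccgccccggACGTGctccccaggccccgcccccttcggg
Ldha: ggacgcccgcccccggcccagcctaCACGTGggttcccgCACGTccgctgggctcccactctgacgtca

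The oxygen sensors Egln1 (chr8:124908587-124949324, GENCODE M21 on GRCm38, as for the genes that follow) and Egln3 (chr12:54178981-54203860) were higher in all 5 IS + pNaKtide libraries than in any IS library. Egln1 was at 75.4, 74.2, 67.4, 77.5 and 72.3 CPM in IS replicates 1 to 5 and at 97.5, 106, 90.4, 94.9 and 96.5 CPM in IS + pNaKtide replicates 1 to 5 (log2 fold change 0.41 ± 0.08 (SE), BH-adjusted p = 0.14 by edgeR). Egln3 was at 139, 138, 126, 146 and 125 CPM in IS replicates 1 to 5 and at 193, 195, 164, 163 and 171 CPM in IS + pNaKtide replicates 1 to 5 (log2 fold change 0.39 ± 0.09 (SE), BH-adjusted p = 0.27 by edgeR). For neither did the groups overlap, which held for 0.551% of all genes tested in the higher direction and for 0.834% in either direction. Under random labels an exact two-sided permutation of 5 against 5 libraries separates a gene fully with probability 0.0079, close to that 0.834%. Egln1 and Egln3 had also been picked for a small p, which favors separation. IS replicate 4 was the highest IS library for both, so leaving it out moved the log2 fold changes only to 0.43 and 0.42. Control cells held 86.2 ± 7.50 CPM of Egln1 and 170.5 ± 18.9 CPM of Egln3 (SD, n = 5). Both lay between the 2 group means, Egln1 between the ranges and Egln3 within the IS + pNaKtide range. Vhl, which marks hydroxylated HIF for degradation, differed by less. Vhl was at 79.3, 80.4, 80.0, 80.1 and 76.1 CPM in IS replicates 1 to 5 and at 91.5, 92.9, 89.6, 87.3 and 88.6 CPM in IS + pNaKtide replicates 1 to 5 (log2 fold change 0.18 ± 0.08, SE), again without overlap. The factors themselves did not separate: Hif1a had a log2 fold change of -0.10 ± 0.12 and Epas1, which encodes HIF-2α, of 0.04 ± 0.17 (SE), and both groups overlapped. Of 14 HIF pathway components, a list written after the values had been seen, 3 were higher at an unadjusted p under 0.05 and 0 lower (1.45% and 1.35% of all genes). These were Vhl and the prompting genes Egln1 and Egln3 themselves, and the list had a median of 0.04 beside -0.01 over all genes.

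Several transcription factors and secreted products showed the same arrangement. Fosl1 (chr19:5447547-5455946), a Fos-family subunit of AP-1, had the smallest p of all genes. Fosl1 was at 24.0, 24.3, 21.2, 25.1 and 23.6 CPM in IS replicates 1 to 5 and at 42.6, 41.3, 32.1, 29.5 and 36.2 CPM in IS + pNaKtide replicates 1 to 5 (log2 fold change 0.62 ± 0.12 (SE), BH-adjusted p = 0.14 by edgeR). The lowest IS + pNaKtide library lay above the highest IS library, which was IS replicate 4, and control cells held 38.0 ± 4.83 CPM (SD, n = 5). Mxi1 was at 22.5, 22.9, 20.5, 19.5 and 20.2 CPM in IS replicates 1 to 5 and at 28.6, 29.5, 27.8, 29.8 and 27.5 CPM in IS + pNaKtide replicates 1 to 5 (log2 fold change 0.44 ± 0.09 (SE), BH-adjusted p = 0.14 by edgeR). Mxi1 (chr19:53310518-53375810) encodes an antagonist of Myc that HIF induces, and its groups did not overlap either. Inhbb was at 3.38, 2.75, 4.03, 3.29 and 3.11 CPM in IS replicates 1 to 5 and at 5.56, 5.48, 5.43, 5.52 and 5.42 CPM in IS + pNaKtide replicates 1 to 5 (log2 fold change 0.73 ± 0.16 (SE), BH-adjusted p = 0.23 by edgeR). Inhbb (chr1:119415465-119422248) encodes the activin beta B subunit of the TGF-beta family, which fat cells secrete, and its 5 IS + pNaKtide values spanned a narrow range above all IS values. Ndrg1 was at 3.75, 4.49, 4.43, 4.42 and 5.18 CPM in IS replicates 1 to 5 and at 6.95, 7.62, 8.26, 7.05 and 8.96 CPM in IS + pNaKtide replicates 1 to 5 (log2 fold change 0.80 ± 0.18 (SE), BH-adjusted p = 0.23 by edgeR). Ndrg1 (chr15:66929318-66969640), a gene strongly induced by low oxygen, had its lowest mean of the 6 groups in IS, 4.45 CPM, with control cells at 8.22 ± 2.09 CPM (SD, n = 5). Adm was at 2.75, 3.41, 2.82, 1.69 and 3.17 CPM in IS replicates 1 to 5 and at 5.89, 6.59, 4.74, 2.99 and 4.55 CPM in IS + pNaKtide replicates 1 to 5 (log2 fold change 0.81 ± 0.20 (SE), BH-adjusted p = 0.53 by edgeR). Adm (chr7:110627661-110629820) encodes the vasodilator peptide adrenomedullin, and here the groups overlapped through IS + pNaKtide replicate 4.

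The last 3 of these 10 genes were Eno2, Gpr35 and Fam117b. Eno2 was at 7.56, 7.01, 5.10, 3.95 and 5.49 CPM in IS replicates 1 to 5 and at 10.1, 12.2, 7.87, 8.59 and 9.18 CPM in IS + pNaKtide replicates 1 to 5 (log2 fold change 0.70 ± 0.15 (SE), BH-adjusted p = 0.22 by edgeR). Eno2 is the neuronal isoform of enolase and a glycolysis gene, and IS replicate 4 was the lowest of its IS values, so that without it the log2 fold change was 0.60. Gpr35, a G protein-coupled receptor, was at 1.03 CPM in IS replicate 4, below 1.69 CPM in all IS libraries, and from there to 3.25 CPM in IS + pNaKtide (log2 fold change 0.83 ± 0.19 (SE), BH-adjusted p = 0.27 by edgeR). Fam117b ranged from 30.8 to 44.4 CPM in IS and from 48.2 to 58.8 CPM in IS + pNaKtide (log2 fold change 0.47 ± 0.11 (SE), BH-adjusted p = 0.27 by edgeR). Neither group pair overlapped. Beside 9 of these 10 genes, all but Gpr35, DESeq2 called 5 more, all higher: Sqle, the squalene epoxidase of cholesterol synthesis (0.20 ± 0.07), Sdhaf2, an assembly factor of succinate dehydrogenase (0.29 ± 0.07), the linker histone H1f0 (0.27 ± 0.07), the semaphorin Sema3g (0.54 ± 0.14) and Siah2, a ubiquitin ligase that acts on the prolyl hydroxylases (0.39 ± 0.10; edgeR log2 fold changes ± SE).

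**Figure D2:**
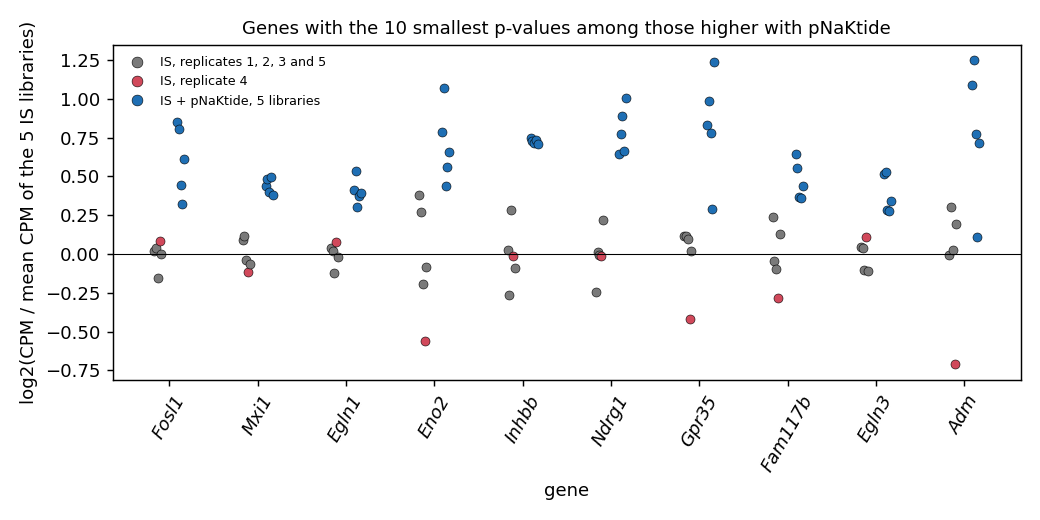
Log2 of CPM in each library relative to the mean of the 5 IS libraries, for the 10 genes with the smallest p among those higher with pNaKtide, in order of p. IS replicate 4 is marked in red, and for 9 of the 10 genes (all but Adm) every IS + pNaKtide point lies above every IS point. The genes were picked for a small p in these same libraries, which favors such separation.

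A wider list of 47 hypoxia-inducible genes outside glycolysis, written after values had been seen, held 12 genes higher and 0 lower at an unadjusted p under 0.05 with IS replicate 4, where 1.45% of all genes were higher, and as many without it, where 4.15% were. The list includes Ndrg1, Adm and Mxi1, which had prompted it, and had a median of 0.15 that became 0.10 without that library. In 7 the groups did not overlap, all higher (0.551% of all genes). Fam162a and Higd1a, mitochondrial proteins induced by HIF, ran from 102 to 115 CPM in IS and from 122 to 145 CPM in IS + pNaKtide, and from 68.0 to 81.4 CPM in IS and from 86.8 to 101 CPM in IS + pNaKtide (log2 fold changes 0.26 ± 0.08 and 0.28 ± 0.09, SE). Bnip3, a receptor for the removal of mitochondria, was at 173 CPM in IS replicate 4 and 206 to 270.0 CPM in the other IS libraries, against 274 to 287 CPM in IS + pNaKtide, and its log2 fold change of 0.29 ± 0.11 (SE) became 0.21 without IS replicate 4. Averaged over the list, IS replicate 4 was the lowest library, at -0.29 relative to the 10-library mean, and IS replicate 1 at 0.04 overlapped the IS + pNaKtide range of 0.02 to 0.16.

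Glycolysis, the conversion of glucose to pyruvate and lactate, was higher by value across most of its genes. Of its 20 tested genes 19 had a positive log2 fold change, with a median of 0.26 beside -0.01 over all genes. At an unadjusted p under 0.05, 7 were higher and 0 lower (1.45% of all genes were higher), and in 5 the groups did not overlap, all higher (0.551% of all genes). Without IS replicate 4 the median was 0.34, 15 were higher and 0 lower at that threshold (4.15% of all genes were higher), 15 did not overlap (with that library left out, 5.87% of all genes did so in the higher and 3.84% in the lower direction), and 15 were higher at a BH-adjusted p under 0.1 when the 9 libraries were fitted alone (4.80% of all genes). With the length and GC trend of each library removed the medians were 0.24 with and 0.30 without IS replicate 4. In the mean over the list, the IS libraries other than replicate 4 lay between -0.20 and -0.15, IS replicate 4 at 0.08 and the IS + pNaKtide libraries between 0.02 and 0.28 relative to the 10-library mean. IS replicate 4 was above all other IS libraries for 16 of the 20 genes.

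Following the pathway from the membrane, glucose transporter 1 came first. Slc2a1 was at 109, 106, 96.2, 113 and 108 CPM in IS replicates 1 to 5 and at 148, 152, 122, 123 and 132 CPM in IS + pNaKtide replicates 1 to 5 (log2 fold change 0.35 ± 0.11, SE). All 5 treated values lay above all IS values. Pfkl was at 305, 315, 285, 416 and 287 CPM in IS replicates 1 to 5 and at 420.4, 421, 378, 365 and 412 CPM in IS + pNaKtide replicates 1 to 5 (log2 fold change 0.31 ± 0.11). Pfkl is the liver isoform of phosphofructokinase, the committed step, and only IS replicate 4 reached the IS + pNaKtide range, so that without it the log2 fold change was 0.42. Tpi1 was at 720.3, 726, 704, 1150.1 and 686 CPM in IS replicates 1 to 5 and at 999, 1066, 864, 883 and 909 CPM in IS + pNaKtide replicates 1 to 5 (log2 fold change 0.24 ± 0.15). Triosephosphate isomerase, Tpi1, depended on that library too: IS replicate 4 exceeded every IS + pNaKtide library, and without it the log2 fold change was 0.41. Pgk1 was at 1044, 1033, 973, 1063 and 939 CPM in IS replicates 1 to 5 and at 1359.7, 1403, 1108, 1109.8 and 1184 CPM in IS + pNaKtide replicates 1 to 5 (log2 fold change 0.29 ± 0.11). The groups of phosphoglycerate kinase 1 did not overlap, and neither did those of phosphoglycerate mutase. Pgam1 was at 801, 805, 767, 905 and 739 CPM in IS replicates 1 to 5 and at 999, 1043, 929, 925 and 941 CPM in IS + pNaKtide replicates 1 to 5 (log2 fold change 0.27 ± 0.09). Ldha was at 1050.0, 1052, 1027, 1321 and 969 CPM in IS replicates 1 to 5 and at 1404, 1426, 1237, 1204 and 1268 CPM in IS + pNaKtide replicates 1 to 5 (log2 fold change 0.27 ± 0.13). Lactate dehydrogenase A overlapped through IS replicate 4. Pdk1 was at 88.3, 81.6, 74.1, 57.6 and 70.2 CPM in IS replicates 1 to 5 and at 101, 95.7, 94.2, 98.8 and 98.1 CPM in IS + pNaKtide replicates 1 to 5 (log2 fold change 0.39 ± 0.11). Pdk1, the kinase that closes pyruvate's entry into the mitochondrion, went the other way in IS replicate 4, its lowest library, and its groups did not overlap. Hk2, Ldhb and Pfkm had log2 fold changes of 0.24 ± 0.12, 0.04 ± 0.10 and 0.02 ± 0.09, and Aldoc, with under 1 CPM in every library, was the single negative value at -0.70 ± 0.81 (SE throughout).

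**Figure D3:**
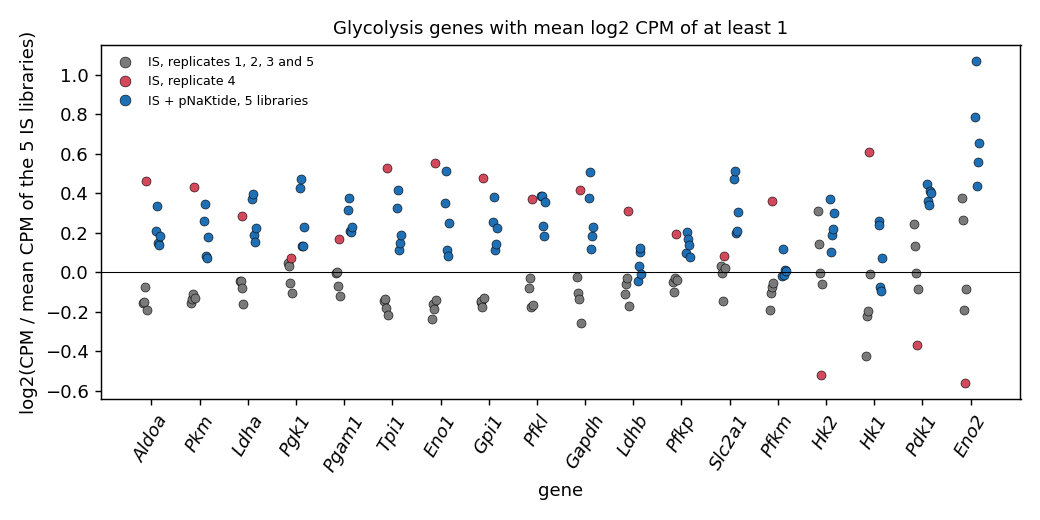
Log2 of CPM in each library relative to the mean of the 5 IS libraries for the 18 glycolysis genes that averaged a log2 CPM of 1 or more, ordered from the most to the least abundant. IS replicate 4 (red) lies with or above the IS + pNaKtide points for genes such as Tpi1 and below all points for Pdk1 and Eno2.

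In other lists the values depended on IS replicate 4, which lay on the far side of the IS + pNaKtide libraries. Cytosolic ribosomal proteins had a median of 0.04 over 85 genes with 0 genes at an unadjusted p under 0.05, and of 0.22 with 25 higher and 0 lower without it, when 4.15% of all genes were higher. Rpl13 was at 225, 255, 275, 567 and 285 CPM in IS replicates 1 to 5 and at 332, 406, 361, 345 and 343 CPM in IS + pNaKtide replicates 1 to 5. In this gene of the large subunit, IS replicate 4 was the highest of the 10 libraries, and the log2 fold change of 0.15 ± 0.19 became 0.46 without it. IS replicate 4 exceeded all other IS libraries for 82 of the 85 genes. The 37 nuclear genes of respiratory complex I had medians of 0.05 and 0.15, with 0 and 7 genes higher, and the 369 numbered Zfp zinc finger genes, mostly repressors with KRAB domains, had medians of -0.09 and -0.19, with 8 and 45 genes lower and 0 and 3 higher. Of all genes 1.35% and 2.93% were lower, with and without that library. With the length and GC trends removed, the medians without IS replicate 4 were 0.15 for ribosomal proteins, 0.07 for complex I and -0.08 for the Zfp genes.

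Library measures moved with these shifts. Without IS replicate 4, the IS + pNaKtide libraries had fewer total counts (a mean of 12332546 against 14689961), fewer genes detected (19992 against 20753) and a smaller share of counts on numbered Zfp genes (0.444% against 0.503%), each at an exact two-sided permutation p of 0.0079 (BH-adjusted 0.012 over 6 measures), the smallest this design allows. With it, none of the 6 measures reached an exact permutation p of 0.05. Within IS this library was the lowest for total counts, genes detected (19187) and Zfp share (0.337%), and it had been left out for standing apart in these same data. Leaving it out favors such a separation, so the p-values without it describe and do not test. Across 12621 genes the log2 fold change followed GC content with a Spearman's rho of 0.27, and of 0.54 without IS replicate 4. The part of depth and GC content in the shifts was not tested beyond the values with the trend removed.

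**Figure D4:**
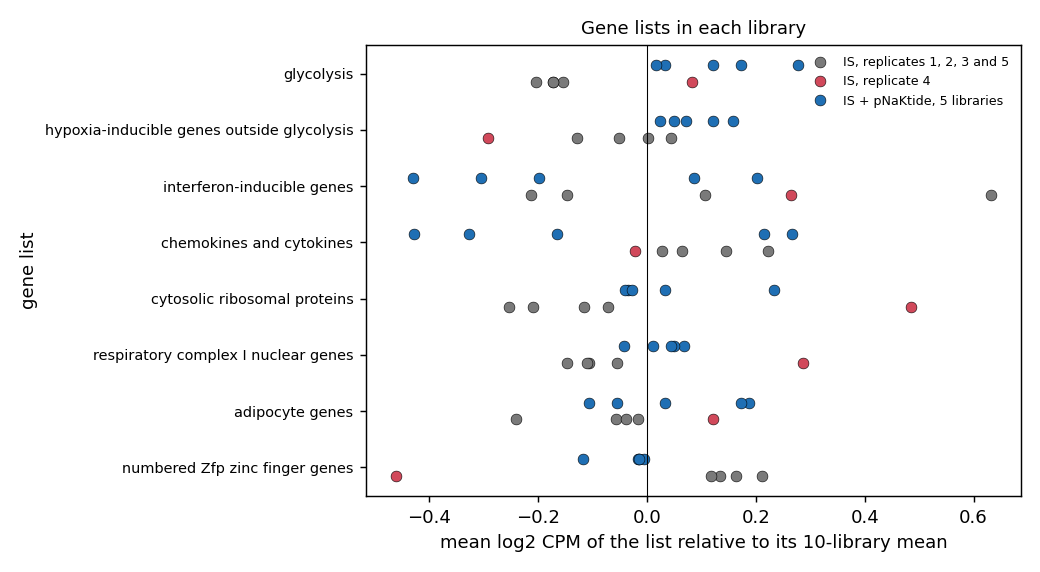
Mean log2 CPM of 8 gene lists in each of the 10 libraries, relative to the 10-library mean of the list. IS replicate 4 (red) lies at 0.48 for cytosolic ribosomal proteins and -0.46 for Zfp genes, beyond the IS + pNaKtide libraries (blue), while for glycolysis it lies among them.

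The 25 adipocyte genes had a median of 0.10, with 1 higher at an unadjusted p under 0.05 (1.45% of all genes were), and of 0.18 with 7 higher and 0 lower without IS replicate 4 (4.15% of all genes were higher), and the latter median was 0.11 with the length and GC trends removed. Positive values were found for 21 of them with and 23 without it. Adipoq had a log2 fold change of 0.12 ± 0.12, the master regulator Pparg of 0.06 ± 0.09, Cebpa of 0.18 ± 0.11, Fabp4 of 0.07 ± 0.10, Plin1, which coats the lipid droplet, of 0.09 ± 0.09, and Lpl of 0.09 ± 0.09 (SE), and in each the groups overlapped. Cholesterol synthesis had medians of 0.11 and 0.16 over 24 genes, with 2 and 6 genes higher, beside 1.45% and 4.15% of all genes, and 0 lower. Its member Sqle did not overlap between the groups, running from 177 to 193 CPM in IS and from 197 to 227 CPM in IS + pNaKtide. Mvd, an enzyme of the mevalonate steps, was at 106 CPM in IS replicate 4, above the 4 other IS libraries (62.0 to 66.2 CPM) and above all IS + pNaKtide libraries (77.4 to 89.8 CPM).

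Of the pathway that pNaKtide was designed for, the 12 tested Na,K-ATPase and FXYD genes had medians of 0.00 and 0.14 with and without IS replicate 4, and the 8 Src family genes of 0.00 and -0.01. With all 10 libraries 0 of their genes passed an unadjusted p of 0.05, where 2.80% of all genes did, a share at which 0 is not informative for lists this short. When IS replicate 4 was left out, 1 Na,K-ATPase or FXYD gene was higher and 2 did not overlap, beside 4.15% and 5.87% of all genes. Src ran from 22.5 to 25.5 CPM in IS and from 23.3 to 27.2 CPM in IS + pNaKtide. The 14 aryl hydrocarbon receptor genes (median -0.03) and the 25 genes of TLR4 and NF-kappaB signaling (median 0.00) likewise had 0 genes at that threshold with all 10 libraries and 1 lower gene each without IS replicate 4 (2.93% of all genes). Cyp1b1 had a log2 fold change of -0.04 ± 0.09 and Tiparp of 0.12 ± 0.16, and Cyp1a1 was under 0.2 CPM in all 10 libraries. The 31 antioxidant and Nrf2 target genes went both ways, with 1 higher and 1 lower at an unadjusted p under 0.05 (1.45% and 1.35% of all genes), and a median of 0.04 that became 0.12 without IS replicate 4, a library above all other IS libraries for 18 of them. Among them Hmox1 did not overlap between the groups, from 157 to 174 CPM in IS and from 183 to 188 CPM in IS + pNaKtide, with a log2 fold change of 0.15 ± 0.09. Nqo1, of the aryl hydrocarbon receptor list, did not overlap in the other direction (0.283% of all genes), from 24.7 to 26.8 CPM in IS and from 22.7 to 24.7 CPM in IS + pNaKtide, with -0.11 ± 0.08 (SE throughout). Col15a1, a basement membrane collagen, was below 21.9 CPM in all IS libraries and ran from there to 24.1 CPM in IS + pNaKtide (0.34 ± 0.13), with control cells at 34.6 ± 6.63 CPM (SD, n = 5), while the 32 collagens tested had a median of -0.08 and 10 positive values. Among stress and clock genes, Trib3, a pseudokinase of the ATF4 response, ran from 30.4 to 38.3 CPM in IS and from 39.7 to 54.2 CPM in IS + pNaKtide (0.44 ± 0.11), and the clock repressor Bhlhe41 from 5.82 to 7.31 CPM in IS and from 8.05 to 10.4 CPM in IS + pNaKtide (0.44 ± 0.12), both without overlap.

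The smallest BH-adjusted p was 0.57 among all lower genes and 0.14 among the higher. Ccl9, a chemokine, was among the lower genes by value. Ccl9 was at 5.19, 5.39, 4.03, 5.17 and 4.45 CPM in IS replicates 1 to 5 and at 3.35, 4.36, 3.82, 2.91 and 3.32 CPM in IS + pNaKtide replicates 1 to 5 (log2 fold change -0.45 ± 0.13, SE). Its groups overlapped, since IS + pNaKtide replicate 2 lay above IS replicate 3. The 15 chemokines and cytokines tested, of which 4 averaged a log2 CPM of 1 or more, had a median of -0.22 with IS replicate 4 and -0.22 without, and between -0.30 and -0.08 over 21 alternatives. With IS replicate 4, 0 were higher and 3 lower (Ccl9, Ccl7 and Csf1) at an unadjusted p under 0.05, beside 1.35% of all genes lower. In the mean over the list, IS + pNaKtide replicates 1 and 2 lay at 0.21 and 0.27, within or above the IS range of -0.02 to 0.22, and the other 3 lay below it. Ifih1, a sensor of viral RNA, Gvin1 and Gbp3, GTPases induced by interferon, had log2 fold changes of -0.59 ± 0.19, -0.71 ± 0.25 and -0.44 ± 0.16. Of 50 interferon-inducible genes, a list written after the values had been seen, 10 were lower (1.35% of all genes were) and 0 higher, with a median of -0.30 (-0.23 without IS replicate 4, -0.11 without IS replicate 5 and -0.40 without IS + pNaKtide replicate 2). The list includes Ifih1, Gvin1 and Gbp3, which had prompted it, and in 0 of them did the groups not overlap. The mean of the list was highest in IS replicate 5, next to 0.27 in IS replicate 4, and ran from -0.21 to 0.63 within IS and from -0.43 to 0.20 within IS + pNaKtide, so that IS + pNaKtide replicates 1 and 2 lay above IS replicates 1 and 2. The other named lower genes were Clca3a1 (-0.32 ± 0.11), Mthfs (-0.39 ± 0.13), Nudt17 (-0.51 ± 0.18), Tmem14a (-0.63 ± 0.22) and Tram1l1 (-0.47 ± 0.17), and Mthfs, an enzyme of folate metabolism, was the 1 gene of the 10 with the smallest p among those lower whose groups did not overlap, against 0.283% of all genes in the lower direction.

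The same peptide was added to control and to oxLDL-treated cells in libraries that the comparison does not share. The log2 fold change with pNaKtide of Egln1 was 0.41 in IS-treated, 0.16 in control and 0.37 in oxLDL-treated cells, that of Egln3 0.39 in IS-treated, 0.12 in control and 0.43 in oxLDL-treated cells and that of Fosl1 0.62 in IS-treated, 0.18 in control and 0.54 in oxLDL-treated cells. For these 3 genes the change in IS-treated cells did not differ from that in oxLDL-treated cells at a BH-adjusted p of 0.1 (0.86, 0.90 and 0.79 by edgeR's interaction test), which does not show that they are alike. Ndrg1 was 0.80 in IS-treated, -0.08 in control and -0.08 in oxLDL-treated cells, Mxi1 0.44 in IS-treated, 0.30 in control and 0.03 in oxLDL-treated cells and Fam117b 0.47 in IS-treated, 0.05 in control and -0.10 in oxLDL-treated cells, and for these the change in IS-treated cells exceeded that in oxLDL-treated cells (BH-adjusted p = 0.018, 0.024 and 0.014). These genes had been picked for a small p in IS-treated cells, which favors a larger value there. Over all genes 5894 (29.3%) differed between these backgrounds, 3094 with the larger and 2800 with the smaller value in IS-treated cells, a split that became 4853 and 1613 when libraries were scaled by size alone and turned to 3183 and 3403 with DESeq2 and 2857 and 3075 with its size factors in edgeR. The count was 3793 without IS replicate 4, 2048 larger and 1745 smaller. Between IS-treated and control cells 0 genes differed, by edgeR and by DESeq2. By edgeR 619 (3.07%) had an unadjusted p under 0.05, a share below the 0.05 that the threshold gives by itself when nothing differs. The glycolysis median was 0.26 in IS-treated, 0.16 in control and 0.50 in oxLDL-treated cells, where 16 of the 20 genes rose at a BH-adjusted p under 0.1. This was not particular to glycolysis. Medians in control and oxLDL-treated cells were 0.18 and 0.70 for cytosolic ribosomal proteins, 0.14 and 0.53 for complex I and 0.10 and 0.42 for adipocyte genes. In oxLDL-treated cells 80 of 85, 31 of 37 and 17 of 25 of these genes rose at that threshold, and 1 of each list fell. Of all genes 22.1% rose in oxLDL-treated cells and 48.3% passed in either direction, against 0.00497% (1 gene) in control cells, where 2 glycolysis genes were higher at an unadjusted p under 0.05 (2.59% of all genes). The hypoxia-inducible list did not keep its direction, with medians of 0.15, -0.01 and -0.14 in IS-treated, control and oxLDL-treated cells, and 8 of its genes rose and 19 fell in the last (22.1% and 26.1% of all genes). The interferon-inducible list had medians of -0.30, -0.06 and -0.66, and 24 of its genes fell and 3 rose in oxLDL-treated cells. The hypoxia and interferon lists were written after the values in IS-treated cells had been seen and hold genes that prompted them. This favors a larger change there, and the differences between list medians were not tested.

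**Figure D5:**
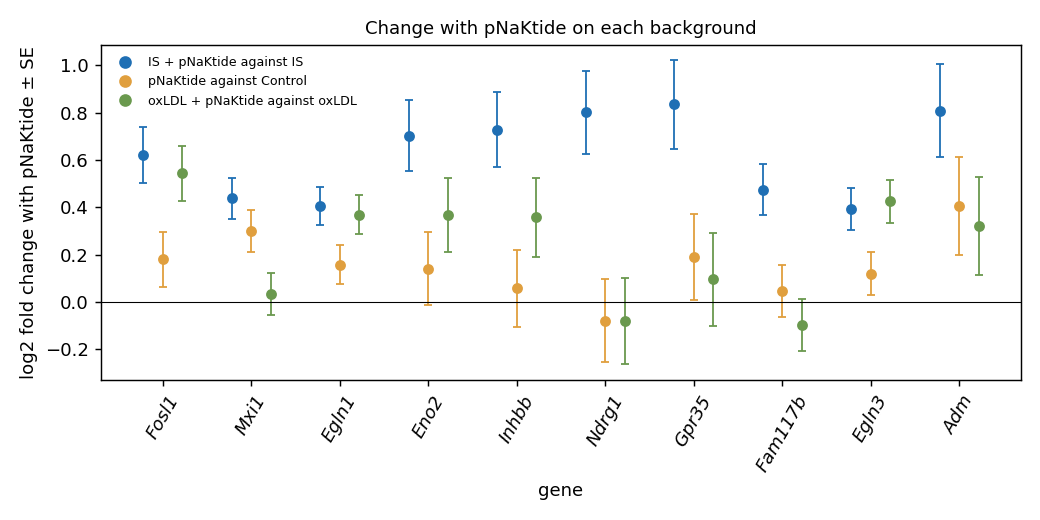
Log2 fold change with pNaKtide and its SE for the 10 genes with the smallest p among those higher with pNaKtide on IS, shown for IS-treated, control and oxLDL-treated cells. Ndrg1 stands at 0.80 in IS-treated cells and at -0.08 in both other backgrounds, while Egln1 stands at 0.41, 0.16 and 0.37.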

How the data were processed

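Stranded mRNA libraries of 3T3-L1 cells were analysed from the deposited table of raw read counts per gene. The authors trimmed reads with Trimmomatic 0.38, aligned them to GRCm38 with HISAT2 2.1.0, counted them with GenomicAlignments and tested with DESeq2 1.20.0. The deposited normalized counts (a signal scaled by size factors) and the deposited FPKM table were used for gene length and for one alternative.

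Of 54232 genes, 20139 with more than 14 counts over 30 libraries were fitted with edgeR 4.0.16 (robust quasi-likelihood, TMM, 6 groups in 1 fit), with BH adjustment and a threshold of 0.1. SEs were derived from the F statistic. CPM are TMM-scaled, and log2 CPM use a prior count of 2. DESeq2 1.42.0, limma 3.58.1 on log2(FPKM + 1), other scalings and filters, trends over length and GC (mgcv 1.9.3, R 4.3.3) and omitted libraries were alternatives. Same-numbered IS and IS + pNaKtide libraries were not taken as pairs.

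The lists and named genes were chosen with earlier results of these data known. Named genes, predicted genes excluded, are the 10 with the smallest p in each direction averaging a log2 CPM of 1 or more, any called by DESeq2 or limma, up to 3 of each list per direction by the p without IS replicate 4, and a fixed set of study genes. A further class, the genes called without IS replicate 4 with the largest change, was empty, since no gene was called there. The other glycolysis genes named, and all genes of the HIF, hypoxia and interferon lists, were chosen after values were seen. Totals ran from 6945498 to 15159877 counts. IS + pNaKtide replicates 3 and 4 were the closest replicates (chi-square 1.30 per degree of freedom), still beyond sampling noise, and were kept as 2 libraries. Some genes that the rule names are not reported here.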

Additional observations from a re-analysis of the deposited data

Results flagged for a closer look

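In 60 groups of 5 libraries, the library measures and 24 genes chosen for their p-values were searched for a single library far from the other 4, which chance gives in about 1 group in 20, and 5 were found. IS replicate 4 had 0.337% of its counts on numbered Zfp genes, next to 0.487% in the nearest IS library, and a score of 47.7 on the first principal component, next to -5.36. IS + pNaKtide replicate 2 had 0.405% on numbered Zfp genes, next to 0.448%. IS replicate 4 was at 1.03 CPM for Gpr35, next to 1.40 CPM, and IS + pNaKtide replicate 4 was at 32.1 CPM for Sema3g, next to 36.4 CPM.

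Of the same 24 genes, 8 differed in their change with pNaKtide between IS-treated and oxLDL-treated cells at a BH-adjusted p under 0.1 (edgeR interaction), where 29.3% of all genes did. These genes had been picked for their change in IS-treated cells, which favors a larger value there. The log2 change was larger in IS-treated cells by 0.88 for Ndrg1, 0.74 for Gpr35, 0.57 for Fam117b and 0.40 for Mxi1. It was higher by 1.24 for Gvin1 and 0.63 for Clca3a1, whose fall in oxLDL-treated cells was the larger, and lower by a difference of -0.55 for Mthfs and -0.86 for Nudt17.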

How the results depend on the processing

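The count of genes differing between IS + pNaKtide and IS was 0 as reported and stayed 0 with DESeq2's size factors, library size alone, genes with at least 1 count, a threshold of 0.05, the compared groups alone and the replicate block. It was 14 with DESeq2, 3 with more than 14 counts in every library, 3 with filterByExpr, 3 with limma on log2(FPKM + 1), 8 with length and GC trends removed and 608 with sample quality weights, which gave IS replicate 4 a weight of 0.187. Of these 608 genes 492 were among the 1957 called from the 9 libraries alone (80.9% of the first list and 25.1% of the second). Leaving out each of the 10 libraries gave 0 to 1, the 1 being without IS + pNaKtide replicate 4. Leaving out each of the 20 other libraries, an alternative chosen after seeing the data, gave 0 to 4, with 4 without Control replicate 1, 3 without oxLDL replicate 3, 3 without oxLDL + pNaKtide replicate 3 and 1 without oxLDL replicate 4. The cause was not tested.

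Without IS replicate 4 the count was 0, and 27 with DESeq2, 1 with genes of at least 1 count, 7 with trends removed, 1957 from the 9 libraries alone and 1363 with the replicate block in those 9. A further library left out gave 0 to 1 over all groups and, in the 9 libraries alone (chosen after seeing the data), 672, 757, 1391 and 2469 without IS replicates 1, 2, 3 and 5 and 2022, 1677, 1629, 1674 and 1235 without IS + pNaKtide replicates 1 to 5. Same-numbered libraries correlated between -0.43 and 0.25 in their deviations from the group means, so the block pairs nothing known, and 0 of the 5 IS + pNaKtide libraries matched their own number best.

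The count of genes whose change differed between IS-treated and oxLDL-treated cells, 5894, ran from 3793 without IS replicate 4 to 6578 over the omitted libraries, with 3869 without oxLDL + pNaKtide replicate 4, and was 6586 with DESeq2, 5932 with DESeq2's size factors in edgeR and 6466 with library size alone. Against control cells it was 0 in all fits run. Without IS replicate 4, 4 library measures passed an exact permutation p of 0.05 that did not with it: total counts (IS + pNaKtide minus IS, -2357415), genes detected (-761), the share on numbered Zfp genes (-0.0583 percentage points) and the first principal component (15.1). That library was the extreme IS library on each of these, so leaving it out favors this outcome. Over 21 alternatives the glycolysis median stayed between 0.20 and 0.34, the hypoxia-inducible median between 0.10 and 0.17 and the interferon-inducible median between -0.40 and -0.11, while the ribosomal protein median ran from -0.01 to 0.22. In the fit of all groups the median absolute log2 fold change, 0.06, was below the median SE, 0.13. Values of that size cannot be told apart from no difference in that fit.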

Other observations

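Outside the lists above, the nuclear and structural noncoding RNAs had medians of -0.17 with and -0.29 without IS replicate 4 over 15 genes, with 0 and 3 lower at an unadjusted p under 0.05. In this paragraph counts with and without that library stand beside 1.35% and 2.93% of all genes lower and 1.45% and 4.15% higher. The 35 genes of DNA replication and mitosis had medians of -0.10 and -0.14, with 1 and 5 lower and 0 higher in both. Over 21 alternatives their median ran from -0.17 to -0.06. In the mean over the list IS + pNaKtide replicate 1 lay at 0.14, above every IS library (at most 0.10). The licensing factor Cdc6 ran from 4.27 to 5.45 CPM in IS and from 3.32 to 4.36 CPM in IS + pNaKtide, and the sliding clamp Pcna from 50.4 to 69.8 CPM in IS and from 56.7 to 61.4 CPM in IS + pNaKtide, with IS replicate 4 the lowest. The 13 mitochondrially encoded transcripts had medians of 0.14 and 0.22, with 1 and 4 higher. The 19 clock genes had medians of 0.11 and 0.09 with 4 higher and 0 lower in both, among them Nr1d1 (0.32 ± 0.10) and Dbp (0.29 ± 0.13; log2 fold change ± SE). With the length and GC trends removed, the medians without IS replicate 4 were -0.14 for the noncoding RNAs, -0.08 for replication and mitosis, 0.34 for the mitochondrial transcripts and 0.05 for the clock genes. IS + pNaKtide replicates 3 and 4 scored -12.7 and -13.0 on the second principal component, which carried 10.7% of the variance, while IS replicate 5 scored 13.1.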
